A study of Mus musculus with 6 samples.

Results

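The Slc22 genes encode organic ion transporters of the plasma membrane, and 9 of them were followed in liver RNA: *Slc22a3*, *Slc22a5*, *Slc22a7*, *Slc22a18*, *Slc22a23*, *Slc22a26*, *Slc22a27*, *Slc22a28* and *Slc22a30*. The members were taken by gene symbol from the count table, which holds 20 Slc22 genes among 25403 listed genes, and each of the 9 had 1 value per liver. Poly(A) RNA was sequenced from the livers of 3 mice labelled WT (C57BL6/J) and 3 mice labelled *Themis*-KO, in which *Themis* is inactivated in the whole body. All 6 mice were fed the MASH diet, in which fat gives 40% and fructose 20% of the energy and cholesterol makes up 2%, from 10 to 12 weeks of age for 3 months, so no liver on another diet was compared. The study used male mice for its MASH diet feeding, and the labels do not give the sex. Y-linked *Ddx3y* lay between 36.3 and 45.4 CPM (a read count scaled to library size by the TMM method) in the 6 livers, and *Xist* was at most 0.378 CPM. The study speaks of WT and *Themis*-KO littermates, its methods name purchased WT mice and a *Themis*-KO line from another laboratory, and the labels do not say which of these the sequenced WT mice were.

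Each library held between 20679642 and 25649767 counts. *Themis* itself was at 8.07, 25.6 and 12.0 CPM in the livers labelled WT and at 8.63, 7.74 and 9.97 CPM in those labelled *Themis*-KO. Its groups overlapped (log2 fold change −0.79, SE 0.38, adjusted p = 0.199 in edgeR), so the counts did not separate the labels, and every direction below rests on the labels. WT replicates 1 and 2 stood apart in mitochondrial reads. *Gm28438*, a nuclear copy of *mt-Nd3*, made up 96.6% and 96.8% of the CPM of both genes there, against 2.20% to 3.26% elsewhere. WT replicate 3 is therefore the only WT liver of the same mitochondrial type as the livers labelled *Themis*-KO. The 12 hepatocyte markers, *Alb* and *Apoa1* among them, summed to between 72840 and 89324 CPM in every liver, and the 3 kidney tubule markers with a value to at most 0.850 CPM.

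Slc22 proteins share a fold of membrane-spanning helices and carry small charged molecules across the membrane of liver, kidney and gut cells. Organic cation transporters (OCT) move positively charged amines and drugs, the OCTN proteins move carnitine and other zwitterions, and organic anion transporters (OAT) exchange negatively charged metabolites, hormone conjugates and drugs. SLC22A7 (OAT2) and SLC22A5 (OCTN2) are known in hepatocytes. A rodent cluster on chromosome 19 holds several close relatives of the OAT genes, and the substrates of many of its products are little known. In bulk tissue, fewer cells of a type and less RNA per cell cannot be told apart.

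The members lie on 5 chromosomes of GRCm38, with positions from GENCODE vM21, and 4 of the 9 belong to the chromosome 19 cluster. On its reverse strand the order is *Slc22a26* (chr19:7781041-7802667), *Slc22a27* (chr19:7864388-7966027), *Slc22a28* (chr19:8062209-8131982), *Slc22a29* (chr19:8160165-8218900, not among the 9) and *Slc22a30* (chr19:8335371-8405111). The longest annotated coding sequences of *Slc22a28* and *Slc22a30* were identical over 1636 of 1656 aligned bases (98.8%). *Slc22a27* and *Slc22a29* formed a second close pair, with 97.3% identity. Between the pairs the identity was 91.5% to 92.2%, and *Slc22a26* stood apart at 74.1% to 74.3%. Within the 1656 coding positions of *Slc22a30*, 96 separated the pairs, in that both genes of a pair carried the same base and the pairs carried different ones. The following stretch of 120 coding bases, which held the most such positions, is shown because bases of this kind let a read be assigned to one pair and not the other. Capitals mark the 18 positions that separate the pairs, and the stretch is read from GENCODE vM21 transcripts over exons 5 to 7 (6 to 8 in *Slc22a27*), which span chr19:8071208-8101370 in *Slc22a28*, chr19:8344720-8370081 in *Slc22a30*, chr19:7879602-7896758 in *Slc22a27* and chr19:8169367-8193401 in *Slc22a29*, introns included.
Slc22a28: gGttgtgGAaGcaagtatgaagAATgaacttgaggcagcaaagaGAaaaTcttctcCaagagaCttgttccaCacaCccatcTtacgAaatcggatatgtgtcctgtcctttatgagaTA
Slc22a30: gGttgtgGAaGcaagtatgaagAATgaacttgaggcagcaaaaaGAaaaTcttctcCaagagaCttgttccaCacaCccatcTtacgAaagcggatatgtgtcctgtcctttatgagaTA
Slc22a27: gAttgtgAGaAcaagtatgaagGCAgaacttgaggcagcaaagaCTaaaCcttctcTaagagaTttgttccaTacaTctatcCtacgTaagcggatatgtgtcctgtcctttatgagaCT
Slc22a29: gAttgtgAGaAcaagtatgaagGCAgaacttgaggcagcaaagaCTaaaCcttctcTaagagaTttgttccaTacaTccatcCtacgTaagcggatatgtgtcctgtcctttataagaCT

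**Figure D1:**
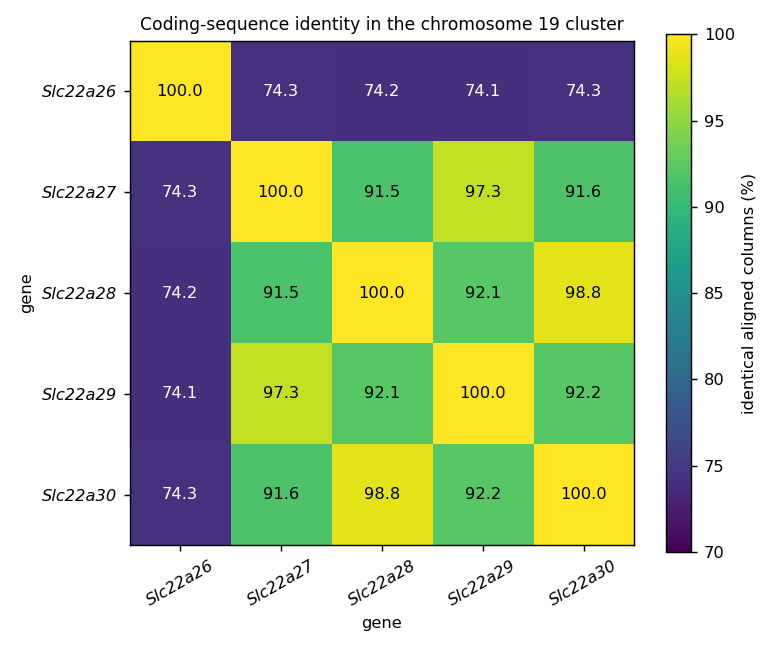
Percent of identical columns in pairwise alignments of the coding sequences of the 5 chromosome 19 genes, on both axes in chromosomal order. The brightest cells off the diagonal, on either side of it, are *Slc22a28* with *Slc22a30* at 98.8% and *Slc22a27* with *Slc22a29* at 97.3%. *Slc22a26* does not exceed 74.3% with any of the others.

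The pairs differed in their promoters. The 250 bases before the RefSeq start sites of *Slc22a28* and *Slc22a30* were 93.0% identical, the highest of all pairs of Slc22 promoters compared. The corresponding bases of *Slc22a27* and *Slc22a29* were 48.5% identical, although the *Slc22a29* promoter matched those of *Slc22a28* and *Slc22a30* at 65.1% and 63.6%. All other pairs lay between 32.2% and 54.2%. The first pair is shown here because both of its genes were lower in the livers labelled *Themis*-KO. The sequences are from RefSeq on GRCm38.p6, reverse strand, chr19:8131983-8132232 for *Slc22a28* and chr19:8405106-8405355 for *Slc22a30*, and capitals mark the bases that are not matched in the other gene, of which 6 lie at one end because the 2 start sites are offset.
Slc22a28: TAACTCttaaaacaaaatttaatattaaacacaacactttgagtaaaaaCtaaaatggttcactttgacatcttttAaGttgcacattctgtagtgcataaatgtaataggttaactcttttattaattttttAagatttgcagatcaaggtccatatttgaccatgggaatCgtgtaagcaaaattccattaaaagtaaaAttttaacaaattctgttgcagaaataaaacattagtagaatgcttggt
Slc22a30: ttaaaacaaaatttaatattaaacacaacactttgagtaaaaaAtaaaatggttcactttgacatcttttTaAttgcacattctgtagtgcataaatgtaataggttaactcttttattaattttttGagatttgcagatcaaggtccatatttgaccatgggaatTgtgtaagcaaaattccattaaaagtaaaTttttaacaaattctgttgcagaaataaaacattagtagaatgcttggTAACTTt

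RefSeq gave a promoter for 8 of the 9 members, and *Slc22a7* was not matched. The promoters of *Slc22a28* and *Slc22a30* were poor in G and C, at 26.8% and 25.6%, whereas those of *Slc22a5* and *Slc22a23* held 73.6% and 78.4%, against a median of 52.4% over 32851 mouse promoters. Both strands were searched for letters of 4 known elements, and no match in a member overlapped another: STAT5 (TTCNNNGAA), HNF4 (CAAAGTCCA), FOXA (TGTTTAC) and the TATA box (TATAAA). A single member held any of them. *Slc22a26* carried the STAT5 letters at bases −141 to −133 from its start, as do 7.02% of all promoters, and no other match was found in a member, with the HNF4 letters in 0.384% of promoters, FOXA in 3.17% and TATA in 12.4%. The match is shown in capitals in the *Slc22a26* promoter, chr19:7802668-7802917, reverse strand.
Slc22a26: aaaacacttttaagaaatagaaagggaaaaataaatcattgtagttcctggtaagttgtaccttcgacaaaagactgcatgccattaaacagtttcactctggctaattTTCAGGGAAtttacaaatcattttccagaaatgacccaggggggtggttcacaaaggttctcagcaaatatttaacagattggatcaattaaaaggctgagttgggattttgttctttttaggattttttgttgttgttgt

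On a scale that allows genes to be compared, CPM per kb of merged exons, the members spanned a range from *Slc22a18* to *Slc22a26* in livers labelled WT. The level was 40.4 ± 4.60 (SD, n = 3) for *Slc22a18*, 28.0 ± 3.60 for *Slc22a30*, 15.0 ± 0.702 for *Slc22a23* and 12.6 ± 0.480 for *Slc22a5*. It was 5.19 ± 1.53 for *Slc22a7*, 2.74 ± 0.805 for *Slc22a28*, 2.58 ± 1.22 for *Slc22a27*, 1.71 ± 0.415 for *Slc22a3* and 0.338 ± 0.152 for *Slc22a26*. Over the 3 WT livers, *Slc22a28* and *Slc22a27* overlapped, as did *Slc22a27* and *Slc22a3*, and the other neighbours in this order did not. In livers labelled *Themis*-KO the first 4 kept their order, at 37.8, 17.5, 13.8 and 10.2 CPM per kb. Below them *Slc22a27* came next at 4.70 ± 0.868, ahead of *Slc22a7* at 1.63 ± 0.768 and *Slc22a3* at 1.42 ± 0.274, whose livers overlapped, and *Slc22a28* had moved down to 0.727 ± 0.216.

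To ask how the genotype labels bear on these transporters, the groups were compared across all 14496 genes with enough counts, which included the 9 members. Of the 9, *Slc22a28*, *Slc22a7* and *Slc22a30* were lower in livers labelled *Themis*-KO at an adjusted p under 0.05, and none was higher. Across all genes tested, 4.14% were called lower and 4.97% higher, together 9.11%. With the libraries scaled by total counts alone the same 3 of 9 members were called lower, while the calls over all genes were 387 lower and 1449 higher, against 600 and 721. The log2 fold change was negative for 8 of the 9 (49.0% of all genes), and its median was −0.30 over the members and 0.01 over all genes. In 5 members every liver labelled *Themis*-KO lay below every WT liver (16.9% of all genes), and in 1 every such liver lay above (17.7% of all genes). At an unadjusted p under 0.05 in edgeR, 5 members were lower and 1 was higher, against 2011 lower and 2438 higher of all 14496 genes. DESeq2 called 4 members lower and 0 higher, against 1090 lower and 1279 higher of all genes.

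**Figure D2:**
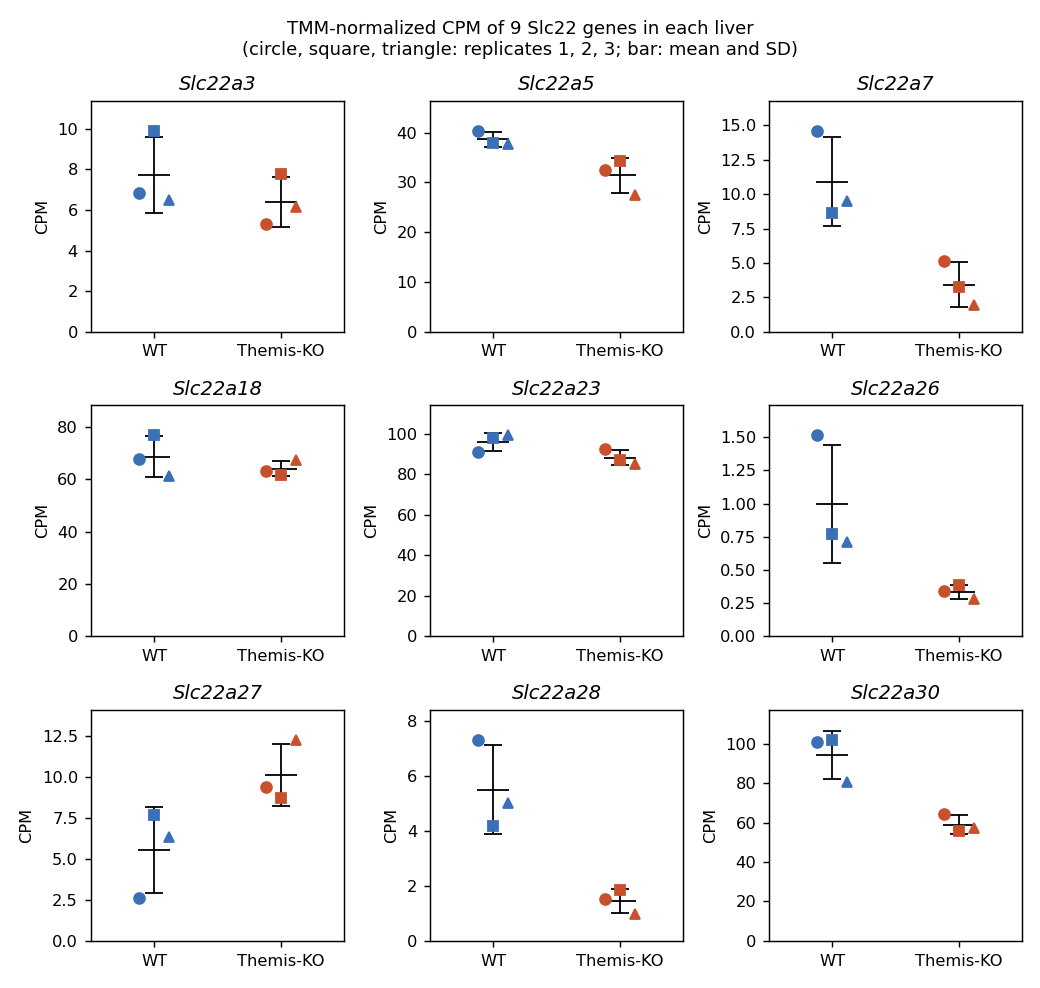
TMM-normalized CPM (vertical axes, from 0) of the 9 genes in the 3 WT livers (blue) and the 3 livers labelled *Themis*-KO (orange), with the mean and SD of each group. *Slc22a5*, *Slc22a7*, *Slc22a26*, *Slc22a28* and *Slc22a30* were lower in all 3 livers labelled *Themis*-KO than in any WT liver, *Slc22a27* was higher in all 3, and the other 3 genes overlapped.

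*Slc22a28* (ENSMUSG00000063590), an OAT relative in the chromosome 19 cluster, showed the largest change of the 9. It was at 7.29, 4.17 and 5.01 CPM in WT replicates 1, 2 and 3, and at 1.53, 1.85 and 0.992 CPM in *Themis*-KO replicates 1, 2 and 3. All WT livers were thus above all livers labelled *Themis*-KO, with WT replicate 1 the highest. The mean fell from 5.49 ± 1.61 to 1.46 ± 0.433 CPM, which was 3.77-fold lower (log2 fold change −1.90, SE 0.30, adjusted p = 0.0191). WT replicate 3, the WT liver of the same mitochondrial type as the other group, was at 5.01 CPM. The call was kept without WT replicate 3 or *Themis*-KO replicate 3 and lost without any other single liver, with adjusted p values of 0.0750 without WT replicate 1, 0.0512 without WT replicate 2, 0.0769 without *Themis*-KO replicate 1 and 0.0621 without *Themis*-KO replicate 2.

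*Slc22a7* (ENSMUSG00000067144, chr17:46432183-46438457, reverse strand) encodes OAT2, which carries organic anions and nucleobase-related compounds in hepatocytes. The WT livers held 14.6, 8.64 and 9.51 CPM, and the livers labelled *Themis*-KO 5.14, 3.23 and 1.94 CPM. The groups did not overlap, and WT replicate 1 was the highest of the 6. WT replicate 3, of the same mitochondrial type as the other group, was at 9.51 CPM. The mean was 10.9 ± 3.21 CPM in WT and 3.43 ± 1.61 CPM in *Themis*-KO livers, a 3.18-fold lower level (log2 fold change −1.66, SE 0.35, adjusted p = 0.0345). None of the 100-base windows of its transcripts occurred in another gene. The call was kept when *Themis*-KO replicate 3 was left out (adjusted p = 0.0125) and lost without each of the other 5, with adjusted p values of 0.130, 0.0913 and 0.0531 without WT replicates 1, 2 and 3 and of 0.0593 and 0.125 without *Themis*-KO replicates 1 and 2.

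*Slc22a30* (ENSMUSG00000052562), the most abundant gene of the chromosome 19 cluster, was at 101, 102 and 80.4 CPM in the WT livers. The lowest of these was WT replicate 3, the WT liver of the same mitochondrial type as the other group. The livers labelled *Themis*-KO had 64.3, 55.5 and 57.1 CPM, all below the lowest WT liver. The mean was 94.4 ± 12.1 CPM against 59.0 ± 4.70 CPM, a 1.60-fold lower level (log2 fold change −0.68, SE 0.12, adjusted p = 0.0237). It had the smallest SE of the 3 called genes, and the most counts, 1209 to 2201 per liver. The adjusted p was 0.0195 without WT replicate 3 and 0.00959 without *Themis*-KO replicate 3. It was 0.103 without WT replicate 1, 0.0891 without WT replicate 2, 0.0692 without *Themis*-KO replicate 1 and 0.104 without *Themis*-KO replicate 2, so those 4 single livers each ended the call.

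**Figure D3:**
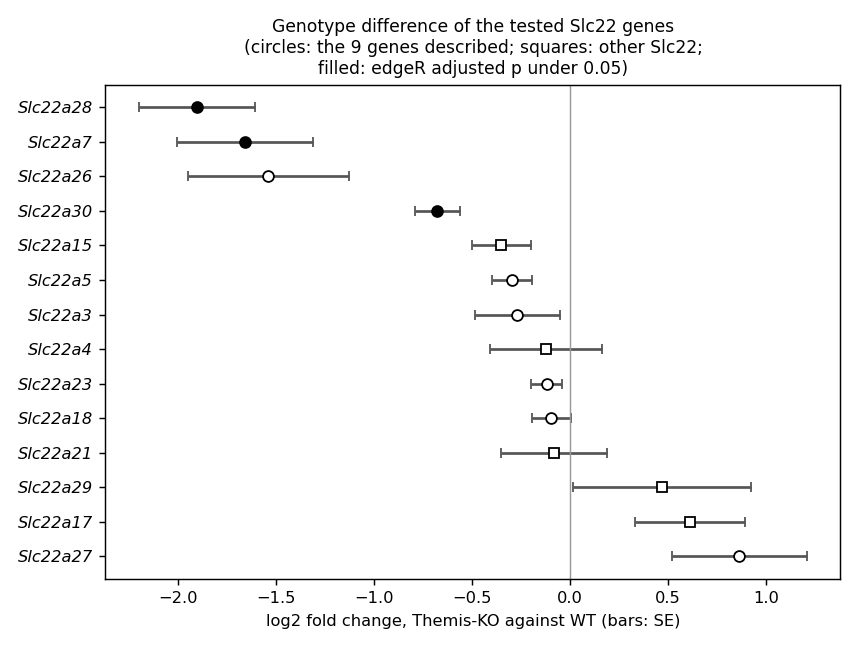
Log2 fold change of livers labelled *Themis*-KO against WT (horizontal axis, bars show the SE) for 14 of the Slc22 genes tested. The 3 filled circles at −1.90, −1.66 and −0.68 are *Slc22a28*, *Slc22a7* and *Slc22a30*, and *Slc22a26* at −1.54 and *Slc22a27* at 0.86 are open because their adjusted p was above the threshold.

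*Slc22a28* and *Slc22a30* share reads. Of the 100-base windows of the *Slc22a28* transcripts, 37.0% also occurred in another gene, namely *Slc22a27*, *Slc22a29* or *Slc22a30*, and 21.1% of those of *Slc22a30* occurred in *Slc22a28* or *Slc22a29*. RSEM divides such reads between the genes, so the 2 levels are not independent measurements. The *Slc22a28* level was 7.22%, 4.10% and 6.23% of that of *Slc22a30* in the WT livers and 2.38%, 3.33% and 1.74% in those labelled *Themis*-KO, so the ratio was not constant over livers and its groups did not overlap. The sum of both genes was 108, 106 and 85.4 CPM in WT and 65.9, 57.4 and 58.1 CPM in *Themis*-KO livers. This sum does not depend on how reads are divided between these 2 genes, but it can depend on reads shared with *Slc22a27* or *Slc22a29*. An exact two-sided permutation test of each of the 3 called genes gave p = 0.1, the smallest value that 3 livers against 3 allow.

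*Slc22a26* and *Slc22a27*, the other members in the cluster, did not pass the test. *Slc22a26* (ENSMUSG00000053303) was the scarcest of the 9, with 33, 16 and 18 counts in the WT livers and 8, 9 and 6 in the livers labelled *Themis*-KO. These correspond to 1.51, 0.768 and 0.710 CPM against 0.340, 0.387 and 0.283 CPM, and the groups did not overlap (log2 fold change −1.54, SE 0.41, adjusted p = 0.0562). DESeq2 gave an adjusted p of 0.0396. *Slc22a27* (ENSMUSG00000067656) pointed the other way, with 2.61, 7.68 and 6.35 CPM in WT and 9.35, 8.73 and 12.2 CPM in *Themis*-KO livers. Each liver labelled *Themis*-KO was above each WT liver, but WT replicate 1 was well below the other WT livers, and the difference was not called (log2 fold change 0.86, SE 0.35, adjusted p = 0.140). Without WT replicate 1 the log2 fold change was 0.53 (adjusted p = 0.207). Its near-copy *Slc22a29* had 0.963, 3.12 and 2.17 CPM in WT and 3.10, 1.59 and 3.97 CPM in *Themis*-KO livers, and its groups overlapped (log2 fold change 0.47, SE 0.45, adjusted p = 0.511).

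The composition of the cluster differed between the groups, and so did its total. The summed CPM of the 5 genes was 113, 118 and 94.6 in WT livers and 78.7, 68.1 and 74.6 in those labelled *Themis*-KO. *Slc22a30* took 89.1%, 86.6% and 84.9% of this sum in WT and 81.8%, 81.6% and 76.6% in *Themis*-KO livers. The share of *Slc22a27* was 2.31%, 6.53% and 6.71% against 11.9%, 12.8% and 16.4%. *Slc22a28* exceeded *Slc22a27* in WT replicate 1, by a ratio of 2.79, and was below it in all other livers, with ratios of 0.544 and 0.789 in the other WT livers and 0.164, 0.212 and 0.0811 in the livers labelled *Themis*-KO. Both genes share some 100-base windows, so this ratio can depend on how RSEM divides those reads. The ratios and shares given here did not overlap between the 2 groups, and since they are built from the values above they are no separate test. The share of *Slc22a29* did overlap, at 0.850% to 2.65% in WT and 2.34% to 5.32% in *Themis*-KO livers.

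**Figure D4:**
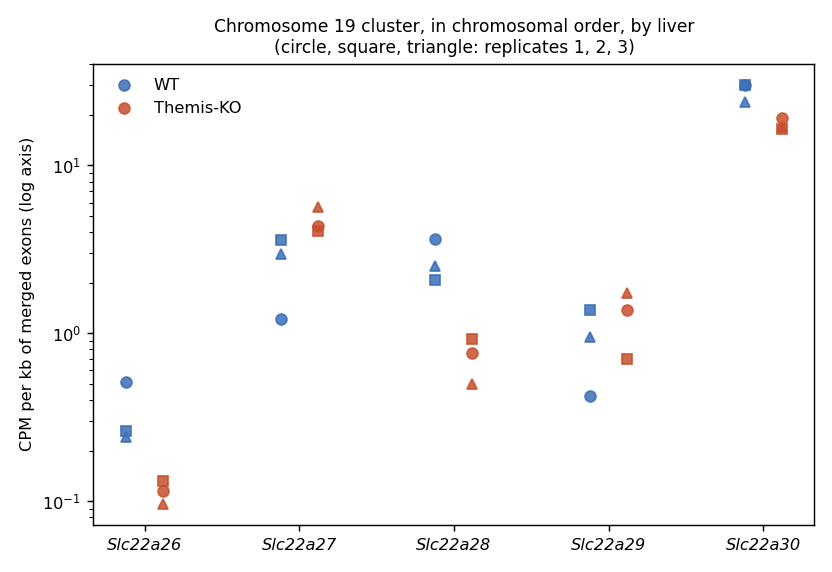
CPM per kb of merged exons (log axis) of the 5 chromosome 19 genes in each liver, WT in blue and *Themis*-KO in orange. *Slc22a26*, *Slc22a28* and *Slc22a30* lie lower in the orange livers, *Slc22a27* lies higher, and the *Slc22a29* livers are mixed.

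*Slc22a5* and *Slc22a3*, the carnitine and monoamine carriers, were not called. *Slc22a5* (ENSMUSG00000018900, chr11:53864542-53891660, reverse strand) encodes OCTN2, which brings carnitine into cells for the transport of fatty acids into mitochondria. It was at 40.3, 37.9 and 37.6 CPM in WT and 32.5, 34.2 and 27.4 CPM in *Themis*-KO livers. The groups did not overlap, and the difference was small (1.23-fold lower, log2 fold change −0.30, SE 0.10, adjusted p = 0.0961). Of its 100-base windows, 12.9% also occur in its neighbour *Slc22a21*, whose level was 1.90% to 2.75% of that of *Slc22a5* in the 6 livers. *Slc22a3* (ENSMUSG00000023828, chr17:12418960-12507704, reverse strand) encodes OCT3, which takes up catecholamines, histamine and serotonin outside neurons. Its levels were 6.83, 9.89 and 6.47 CPM in WT and 5.31, 7.74 and 6.14 CPM in *Themis*-KO livers, which overlapped (log2 fold change −0.27, SE 0.22, adjusted p = 0.420). An exon of *Slc22a3* overlaps *Plg* on the opposite strand. *Slc22a3* was at 0.435% to 0.831% of the *Plg* level, and whether the counting used the strand is not given in the sources used here.

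*Slc22a18* and *Slc22a23* were the members that changed least. *Slc22a18* (ENSMUSG00000000154, chr7:143473736-143499334, forward strand) lies in the imprinted region of distal chromosome 7, near *Phlda2* and *Cdkn1c*. It was at 67.8, 76.8 and 61.2 CPM in WT and 63.2, 61.9 and 67.4 CPM in *Themis*-KO livers (log2 fold change −0.10, SE 0.10, adjusted p = 0.540). *Slc22a23* (ENSMUSG00000038267, chr13:34179158-34345182, reverse strand) encodes a transporter with no known substrate. It was at 90.9, 97.9 and 99.2 CPM in WT and 92.4, 87.2 and 85.3 CPM in *Themis*-KO livers (log2 fold change −0.12, SE 0.08, adjusted p = 0.333). Both genes overlapped between the groups, and with scaling by total counts alone, which raised the median of all genes from 0.01 to 0.15, their log2 fold changes were 0.043 and 0.017.

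Among the remaining 11 Slc22 genes, 6 passed the filter on low counts and none was called by edgeR or DESeq2, although 2 had an unadjusted p under 0.05. *Slc22a15* was at 17.8 to 21.7 CPM against 13.0 to 18.7 CPM (log2 fold change −0.35, adjusted p = 0.158). *Slc22a17* reached 1.24 to 2.26 CPM in WT and 2.11 to 3.35 CPM in *Themis*-KO livers (log2 fold change 0.61, adjusted p = 0.184). *Slc22a4*, which encodes the ergothioneine transporter OCTN1, was at 1.95 ± 0.330 CPM in WT and 1.79 ± 0.550 CPM in *Themis*-KO livers, and *Slc22a21* at 0.637 to 0.872 CPM over all livers. *Slc22a12*, *Slc22a13*, *Slc22a13b*, *Slc22a14* and *Slc22a22* had at most 4 counts in any liver and were not tested.

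Genes that work with these carriers were followed as lists. For comparison, 2011 of all 14496 genes were lower and 2438 higher at an unadjusted p under 0.05, and DESeq2 called 1090 lower and 1279 higher. Of 12 genes of carnitine synthesis and use, 1 was called lower and 0 higher, beside 4 lower at an unadjusted p under 0.05, 3 lower in DESeq2 and 0 with scaling by total counts. The called gene was *Aldh9a1*, an enzyme of carnitine synthesis, at 253, 253 and 223 CPM in WT and 172, 173 and 197 CPM in *Themis*-KO livers (log2 fold change −0.43, SE 0.10, adjusted p = 0.0399). *Slc22a5* has the same sign, with the values given above. The median log2 fold change of the list was −0.19. Among 8 genes of monoamine synthesis and breakdown, 6 were tested and 1 was called, *Maoa*, a monoamine oxidase, which rose (log2 fold change 0.72, SE 0.15, adjusted p = 0.0327) from 5.73, 6.48 and 7.50 CPM to 11.2, 9.72 and 11.5 CPM. The median of the 6 was −0.27.

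Other transporters of the hepatocyte membrane were tested in 22 genes, of which 6 were called lower and 1 higher, with a median log2 fold change of −0.24. With scaling by total counts 2 were called lower and 1 higher, and DESeq2 called 8 lower and 1 higher. *Slco1a1*, an organic anion uptake carrier, was at 197, 91.9 and 142 CPM in WT and 14.4, 13.1 and 30.7 CPM in *Themis*-KO livers (log2 fold change −2.89, SE 0.39, adjusted p = 0.0131). *Slc10a1*, the bile acid uptake carrier NTCP, was at 312, 322 and 301 CPM against 116, 92.2 and 169 CPM (log2 fold change −1.31, SE 0.20, adjusted p = 0.0185). *Abcc4*, an efflux pump, rose from 2.71, 3.36 and 3.91 CPM to 6.93, 7.70 and 5.76 CPM (log2 fold change 1.03, SE 0.19, adjusted p = 0.0273). Each of these 3 genes had groups that did not overlap, as did *Slc22a7* and *Slc22a28* above.

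Genes in or beside the imprinted regions that hold *Slc22a18* and *Slc22a3* were also followed. Of 11 tested, 4 were called higher and 0 lower, beside 1 lower at an unadjusted p under 0.05 and 1 lower in DESeq2, and the median log2 fold change was 0.30. *Phlda2*, which restrains placental growth, was at 0.183, 0.0480 and 0.276 CPM in WT and 0.765, 0.903 and 0.661 CPM in *Themis*-KO livers (log2 fold change 2.12, SE 0.48, adjusted p = 0.0398). The size of this rise rests on few counts, 4, 1 and 7 in WT and 18, 21 and 14 in *Themis*-KO livers. *H19*, a non-coding RNA of the same region, was at 3.30, 12.1 and 6.35 CPM against 38.8, 15.2 and 32.8 CPM (log2 fold change 2.00, SE 0.48, adjusted p = 0.0433). *Airn*, which overlaps *Igf2r* on the opposite strand near *Slc22a3*, rose from between 0.642 and 1.20 CPM to between 2.36 and 2.89 CPM (log2 fold change 1.37, adjusted p = 0.0313). *Igf2r*, named here to complete the 4, was the last of them, at 57.4 to 59.8 CPM in WT and 68.3 to 85.2 CPM in *Themis*-KO livers (log2 fold change 0.43, adjusted p = 0.0418). Whether the counting used the strand is not given in the sources used here, and whether the *Airn* level holds reads of *Igf2r* was not tested.

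Of 15 regulators tested, 3 were called lower and 0 higher, beside 1 higher at an unadjusted p under 0.05 and 0 higher in DESeq2, with a median of −0.28. With scaling by total counts 2 were called lower, and DESeq2 called 6 lower. *Nr0b2*, which encodes the repressor SHP, was at 18.7, 26.4 and 24.2 CPM in WT and 11.4, 15.1 and 15.1 CPM in *Themis*-KO livers (log2 fold change −0.73, SE 0.17, adjusted p = 0.0397). *Ghr*, the growth hormone receptor, fell by 0.58 (adjusted p = 0.0404) and *Ppara*, a receptor for fatty acids, by 0.52 on the log2 scale (adjusted p = 0.0345). Genes known to be higher in male mouse liver were mostly called lower: 12 of 19 tested fell, with a median of −1.17. *Hsd3b5* (log2 fold change −7.13), *Mup7* (−5.85) and *Sult2a8* (−2.97) changed most, at adjusted p values of 0.0206, 0.00772 and 0.00521. The size of the *Hsd3b5* fall is imprecise (SE 1.14), since it had 660, 54 and 320 counts in WT and 3, 3 and 1 in *Themis*-KO livers. Of 13 genes known to be higher in female mouse liver, none was called by edgeR, and the median was 0.21. At an unadjusted p under 0.05, 4 of the 13 were higher, against 2438 of all 14496 genes. DESeq2 called 2 of them higher, against 1279 of all genes.

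**Figure D5:**
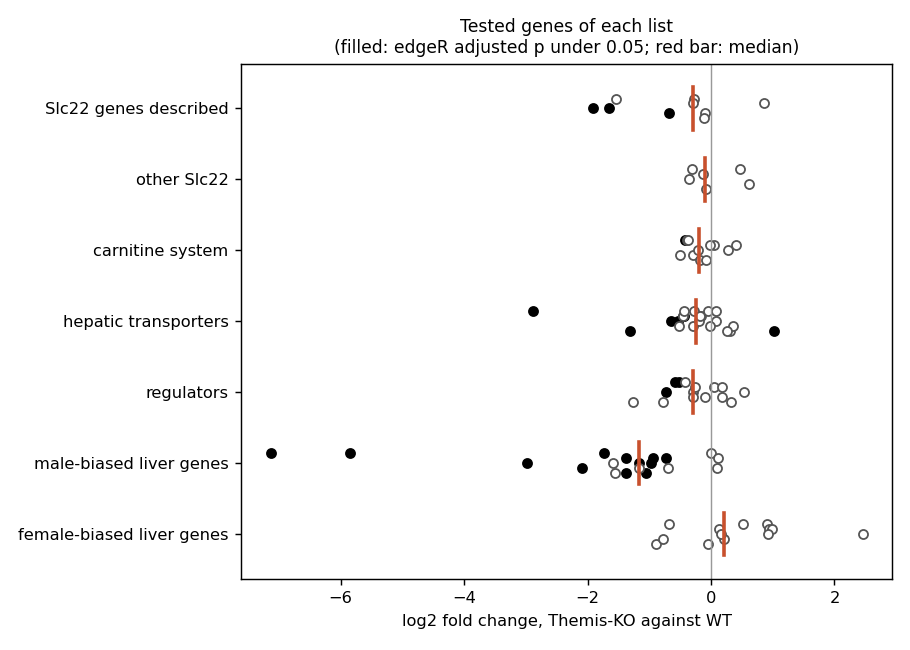
Log2 fold change of livers labelled *Themis*-KO against WT (horizontal axis) of each tested gene in 7 lists, with the list median as a red bar and genes past the threshold filled. The Slc22 members have a median of −0.30 and hepatic transporters one of −0.24, and the male-biased genes reach lowest, with a median of −1.17.

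The genes whose pattern over the 6 livers was nearest to each called member were found by the root mean square difference of log2 CPM, each gene centred on its own mean. For *Slc22a28* these were *Urad* (difference 0.23), *Cyp7b1* (0.30) and *Selenbp2* (0.30). For *Slc22a7* they were *B3galt1* (0.28), *C8b* (0.28) and *Urad* (0.28), so the same gene stood near both. For *Slc22a30* they were *Cd320* (0.04) and *Zyg11a* (0.06), among others. *Slc22a27*, which was not called and is named here after its values were seen, was nearest to *Hebp2* (0.13), *Cyp2b9* (0.13) and *Cyp2b13* (0.16). *Cyp2b9* was at 26.7, 58.7 and 58.6 CPM in WT and 90.5, 72.6 and 106 CPM in *Themis*-KO livers, with WT replicate 1 the lowest, as for *Slc22a27*. These distances describe 6 livers of 2 groups and include the group difference itself.

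The summed markers of cholangiocytes, stellate cells and endothelial cells were higher in every liver labelled *Themis*-KO than in any WT liver, those of hepatocytes were lower, and those of macrophages and T cells overlapped. The 12 hepatocyte markers summed to 80413 to 89324 CPM in WT and 72840 to 75935 CPM in *Themis*-KO livers, and 1 of them (*Serpina1a*, log2 fold change −0.56) was called lower. The 9 cholangiocyte markers summed to 155 to 194 CPM against 389 to 619 CPM, with 2 of 8 tested called higher (*Spp1* and *Cldn7*). Most of this sum was *Spp1* alone, at 137 to 180 CPM in WT and 366 to 571 CPM in *Themis*-KO livers. Of the 8 tested, 4 had groups that did not overlap, whereas those of *Krt19*, *Sox9*, *Cftr* and *Muc1* overlapped. The 12 macrophage markers summed to 341 to 605 CPM against 569 to 751 CPM, with 3 called higher (*Gpnmb*, *Trem2* and *Cd68*). Their log2 fold change was positive for 10 of the 12 and negative for 2, *Marco* (−1.29) and *Timd4* (−0.63), neither of which was called. The 11 stellate cell markers summed to 449 to 512 CPM against 679 to 732 CPM, with 5 called higher, *Col1a1*, *Col1a2* and *Col3a1* among them. The 9 endothelial markers summed to 250 to 272 CPM against 279 to 311 CPM, with 1 called, *Lyve1*. The 7 T cell markers summed to 3.98 to 5.52 CPM against 3.10 to 7.31 CPM, and *Cd4* was called lower. The list had no common direction: of the 5 tested, 2 had a negative and 3 a positive log2 fold change, with a median of 0.0055. No marker with a value was at 0 in every liver, and the part of the cell types in the Slc22 levels was not tested.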

How the data were processed

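Poly(A) RNA-seq of 3 livers labelled WT and 3 labelled *Themis*-KO was analysed, with groups and replicate numbers taken from the sample labels. Per the labels, the authors trimmed reads with cutadapt 2.3, mapped them to GRCm38 with STAR 2.7.8a and assigned them to genes with RSEM 1.3.3, which shares reads that fit several genes. They deposited estimated counts without normalization, which are whole numbers in the table. The annotation release and the use of strand are not given in the sources used here. Positions were therefore taken from GENCODE vM21 for the 25353 listed genes with an entry.

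Genes were filtered with edgeR's filterByExpr (edgeR 4.0.16, limma 3.58.1, R 4.3.3), scaled by TMM and compared by the quasi-likelihood test over all 6 livers without covariates, with Benjamini-Hochberg adjustment over 14496 genes and a threshold of 0.05. All adjusted p values are from this fit unless DESeq2 1.42.0 is named. Each SE was obtained by dividing the log2 fold change by the square root of F. CPM were scaled by TMM with no prior count, and log2 CPM for pattern distances used a prior count of 2 and genes with a mean of at least 1 CPM. Coding sequences and promoters were aligned globally with Biopython 1.88, and shared sequence was counted in windows of 100 bases. The fits were tested on simulated counts. The labels number the livers without naming the animals, so p values measure the spread between these 6 samples.

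The members, the lists of related genes and the cell type markers were chosen with earlier results of these data known. Named were the 9 members, the other listed Slc22 genes, *Themis*, up to 3 genes per list with the largest log2 fold change among those called, and the 3 nearest genes of each called member. Some genes that this rule covers are not reported here. *Igf2r*, *Plg*, *Cyp2b9* and *Hebp2* were among those named after their values were seen. The alternatives were other scalings (RLE, upper quartile and total counts), 2 other filters, DESeq2, a replicate block, the mitochondrial type as a covariate, an adjusted p under 0.1, and each liver left out in turn. Between any 2 libraries the chi-square divided by its degrees of freedom was at least 9.12, so no library was a repeat of another.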

Additional observations from a re-analysis of the deposited data

How the results depend on the processing

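In place of the 3 members called lower, there were 5 at an adjusted p under 0.1, 4 without a filter on low counts, 4 with DESeq2, 1 with the replicate number as a block and 0 with the mitochondrial type as a covariate, and 0 to 3 with one liver left out. The number called higher was 0 under each of these. Over all genes, the calls lower and higher were 1316 and 1664 at an adjusted p under 0.1, 387 and 1449 with total counts alone, 967 and 1212 without a filter, 1090 and 1279 with DESeq2, 45 and 17 with the replicate block, and 3 and 0 with the mitochondrial type, a fit that leaves 1 WT liver to compare within a type and in which the cause of the lost calls was not tested. Leaving out *Themis*-KO replicate 1 gave the fewest calls, 12 lower and 8 higher, and leaving out *Themis*-KO replicate 3 the most, 2039 and 2228, where fewer samples are fitted. The study speaks of 3 pairs of livers, and the labels do not say which livers were paired. Deviations from the group means were not shared by same-numbered livers (mean correlation −0.13, against 0.066 between different numbers), so the numbers are not taken to pair the mice. Both means are tied to each other, because the deviations sum to 0 within each group, so they are not separate evidence on pairing. With the block the adjusted p was 0.0486 for *Slc22a7*, 0.0596 for *Slc22a28* and 0.0711 for *Slc22a30*. With the mitochondrial type the log2 fold changes of these genes were −1.46, −1.77 and −0.45, with adjusted p values of 0.423, 0.303 and 0.415. All 3 kept their sign in every alternative run, as did *Slc22a3*, *Slc22a5*, *Slc22a26* and *Slc22a27*. The sign changed for *Slc22a18* (0.043 with total counts and 0.067 with the mitochondrial type), *Slc22a23* (0.017 with total counts), *Slc22a4* (0.011 with total counts, and −0.30 to 0.10 with one liver left out) and *Slc22a21* (0.055 with total counts, and −0.17 to 0.0084 with one liver left out). *Slc22a26* had too few counts for the filter of 10 counts in every liver. The depth behind *Slc22a26* and the Slc22 genes not tested limits what could be detected. The genes named from the lists kept their sign in every alternative that gave them a value. Of 14 alternatives, *Sult2a8* kept its call in 14 and *Mup7* in 13, and the other genes named from the lists in 6 to 11. With the replicate block, *Slco1a1*, *Hsd3b5*, *Mup7*, *Sult2a8* and *Col1a2* were still called.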
